A study of Homo sapiens with 12 samples.

Results

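The genes described here are 9 markers of the epithelial to mesenchymal transition: the transcription factors ZEB1, ZEB2, SNAI1, SNAI2 and TWIST1 and the mesenchymal markers CDH2, FN1, TAGLN and ACTA2. They were picked by symbol, through their Ensembl numbers, and all 9 were found among the 63036 identifiers of the expression table. Poly(A) RNA had been sequenced from 2 human colorectal carcinoma lines, HCT15 and HCT116, each as cells labelled as overexpressing RNF26 and as control cells. Each of the 4 groups had 3 libraries, 12 in all, and nothing in the labels says whether these came from separate cultures, so the p-values measure only the spread between libraries. The vector, the way RNF26 was introduced and whether the cells are clones are not stated in the sources used here. RNF26 is a RING-type ubiquitin ligase anchored in the endoplasmic reticulum, and the series title links it to metastasis.

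In an epithelial to mesenchymal transition, cells give up their junctions with neighbours and take on a motile, matrix-making state. SNAI1 (Snail), SNAI2 (Slug), ZEB1 and ZEB2 are zinc finger repressors and TWIST1 is a basic helix-loop-helix factor. They act at E-boxes, short motifs such as CAGGTG, in genes like that of E-cadherin, CDH1. In colorectal cancer tissue much of the mesenchymal signal is known to come from stromal fibroblasts, which are absent from a pure cell line culture. The miR-200 microRNAs hold back the mRNAs of ZEB1 and ZEB2, and the ZEB proteins in turn repress the miR-200 genes.

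Because that loop acts through letters in the mRNA itself, the mature miR-200 sequences encoded on chromosome 1 are shown first, 5′ to 3′, with the seed (bases 2 to 8) in capitals. They come from RefSeq on GRCh38.p14, where they lie on the plus strand at chr1:1167160-1167181, chr1:1167916-1167937 and chr1:1169055-1169076.
hsa-miR-200b-3p: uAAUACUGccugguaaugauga
hsa-miR-200a-3p: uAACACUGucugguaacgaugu
hsa-miR-429: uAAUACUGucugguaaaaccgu
The miR-200b and miR-429 seeds are the same, and that of miR-200a differs by 1 letter. A search of the mRNA sequence in DNA letters therefore used CAGTATT for the first pair and CAGTGTT for the other. The annotated 3′ untranslated region of ZEB1, 2549 bases long, held 6 copies of CAGTATT and 3 of CAGTGTT. That of ZEB2, 5370 bases long, held 5 and 4. Of 19641 genes with an annotated 3′ untranslated region, 6, or 0.0305%, held as many of both sites together, ZEB1 and ZEB2 included, and 27.4% held any. FN1 held 2 sites, SNAI2 held 1, and none of these letters occurred in the regions of SNAI1, TWIST1, CDH2, TAGLN or ACTA2. One site of each kind is shown for each ZEB gene, in 30 bases of the mRNA sequence in DNA letters, with the site in capitals. Those of ZEB1 lie at chr10:31527612-31527641 and chr10:31528025-31528054 (plus strand). Those of ZEB2 lie at chr2:144389051-144389080 and chr2:144389235-144389264 (minus strand).
ZEB1, miR-200b and miR-429 site: tctggcattgttttatcttatCAGTATTat
ZEB1, miR-200a site: ggacagcaaaatcatcagaatCAGTGTTtg
ZEB2, miR-200b and miR-429 site: ggtgcccgcactaccatacatCAGTATTtt
ZEB2, miR-200a site: gcattatgcaaaaattttgtaCAGTGTTaa
These are letter matches only, and mature microRNAs are not read by poly(A) libraries. The genes of the 5 miR-200 family hairpins were listed at 0 in every library.

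Values are TPM, transcripts per 1000000, which sum to the same total in every library and are corrected for transcript length, so levels of different genes can be set side by side. Read depth cannot be recovered from TPM, so it is unknown here and no counting interval is given. Between 13582 and 14135 genes reached 1 TPM in a library. Mitochondrial transcripts took 25.9% of HCT15 control replicate 3, against 16.4% to 17.7% of the other HCT15 controls. Ribosomal protein transcripts took 26.3% to 27.5% of the HCT15 RNF26 libraries, against 17.6% to 24.3% of the HCT15 controls. The log2 values correlated less well among the HCT15 controls (0.969 to 0.979) than within the other groups (0.981 to 0.988). RNF26 itself (chr11:119334527-119337313) stood at 53.54, 54.59 and 54.41 TPM in HCT15 RNF26 cells, against 26.71, 27.84 and 26.39 TPM in HCT15 controls. It stood at 298.54, 333.82 and 255.16 TPM in HCT116 RNF26 cells, against 15.57, 18.4 and 16.53 TPM in HCT116 controls. The overexpression was therefore 2.01-fold in HCT15 and 17.6-fold in HCT116 as a ratio of means, and each pair of groups did not overlap. Defining markers of fibroblasts were low: COL1A1, COL1A2, COL3A1, DCN, LUM, PDGFRA, PDGFRB and FAP summed to between 0.35 and 2.8 TPM in a library. Only COL1A1 exceeded 1 TPM in any library, at 0.98 to 2.77 TPM in HCT116. At least 7 of these 8 were under 1 TPM in every group, as were all 5 endothelial markers. Colorectal epithelial markers summed to 3882 to 4068 TPM in HCT15 RNF26 cells and 4242 to 4860 TPM in HCT15 controls. In HCT116 they summed to 2198 to 2540 TPM in RNF26 cells and 2370 to 2573 TPM in controls. In each group 2 of these 8 markers stayed under 1 TPM, which departs from the label: CDX1 and KRT20 in HCT15, where neither exceeded 0.07 TPM, and CDX1, at 0 throughout, and VIL1 (villin), at no more than 0.55 TPM, in HCT116.

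The whole set was low in both lines, and no member reached 7 TPM in any library. In HCT15, 2 of the 9 members, SNAI2 and TWIST1, were listed at 0 in all 6 libraries, and 5 (ZEB1, ZEB2, SNAI2, TWIST1 and CDH2) stayed under 1 TPM throughout. In HCT15 only TAGLN and ACTA2 reached 1 TPM in all 6 libraries, while SNAI1 and FN1 did so in some. In HCT116 no member was at 0 in all 6 libraries, and 3 (ZEB2, SNAI2 and CDH2) stayed under 1 TPM throughout. SNAI1, FN1, TAGLN and ACTA2 reached 1 TPM in all 6 HCT116 libraries, and ZEB1 and TWIST1 in some. The order of the means in HCT15 controls was ACTA2, TAGLN, SNAI1, FN1 and ZEB1, followed by ZEB2 and the 3 members at 0, and the libraries of SNAI1 and FN1 overlapped. In HCT116 controls the order was FN1, SNAI1, TAGLN, ACTA2, ZEB1, TWIST1, SNAI2, CDH2 and ZEB2. There the neighbours FN1 and SNAI1, TAGLN and ACTA2, TWIST1 and SNAI2, and CDH2 and ZEB2 overlapped, while the 3 ZEB1 libraries lay below every ACTA2 library and above every TWIST1 library.

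**Figure D1:**
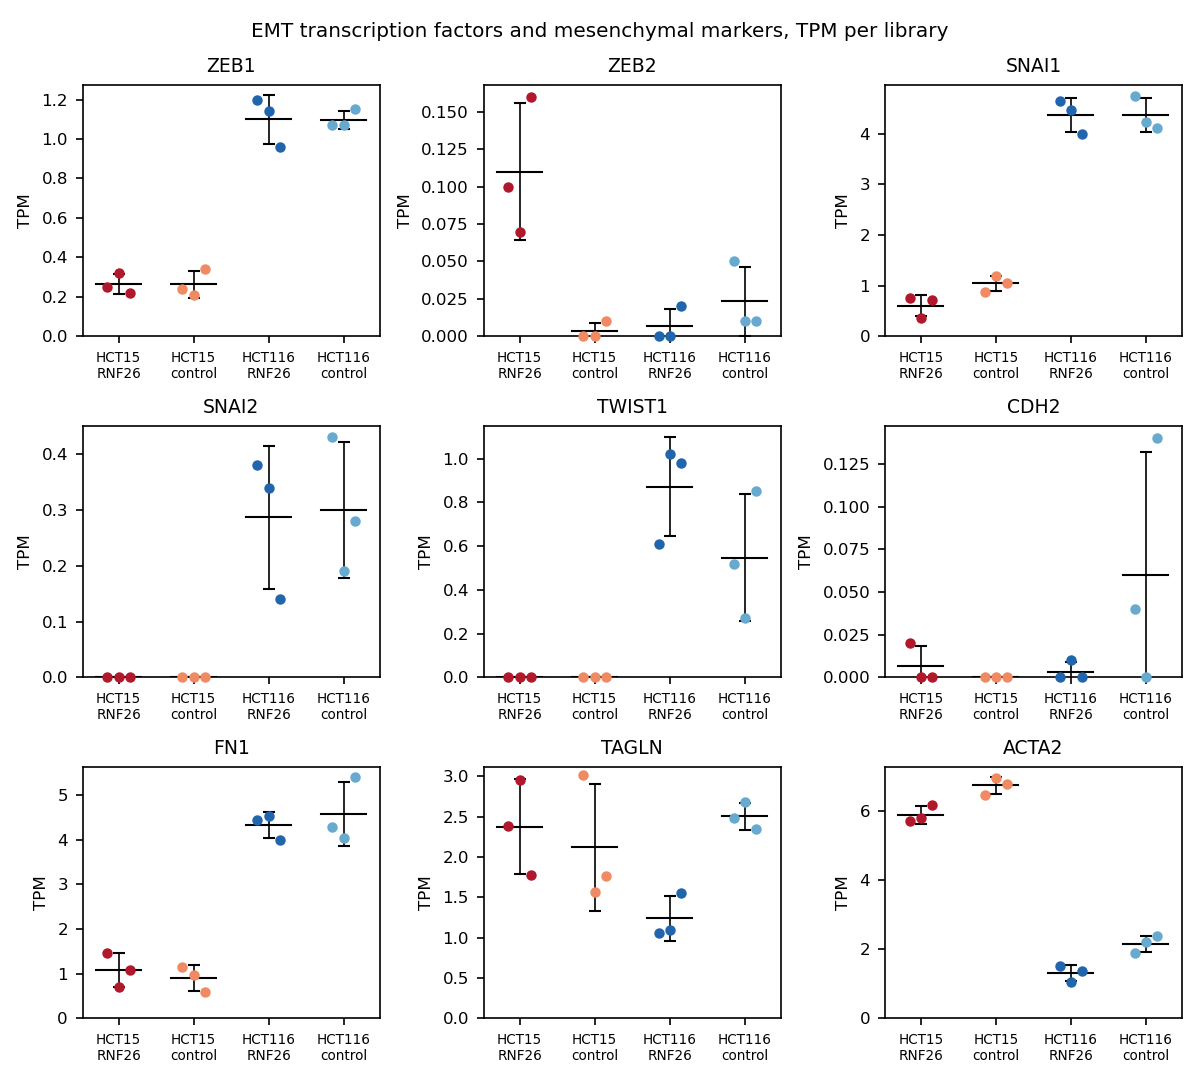
TPM of each of the 9 genes (vertical axes, linear and scaled per gene) in the 3 libraries of each group; points are libraries, horizontal lines the group mean and bars the SD. SNAI2 and TWIST1 lie at 0 in all HCT15 libraries, SNAI1 and FN1 are higher in HCT116, and ACTA2 is higher in HCT15.

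Tests were run with limma on log2(TPM + 1) for the 15584 genes with 1 TPM or more in at least 3 libraries, and a gene was called where its p, adjusted over all tested genes after Benjamini and Hochberg, was under 0.05. Fold changes are on this log2(TPM + 1) scale, which understates the change of low genes. Of the 9 members 5 passed the filter: ZEB1, SNAI1, FN1, TAGLN and ACTA2. ZEB1 and SNAI1 reached the filter through their HCT116 libraries alone (in HCT15, 0 of 6 ZEB1 values and 2 of 6 SNAI1 values were at 1 TPM or more), so a difference between the lines was built into their passing, and their line differences are given as levels with no test. FN1, TAGLN and ACTA2 reached it in each line alone. ZEB2, SNAI2, TWIST1 and CDH2 did not pass and were tested only in a fit without the filter, over 35454 genes. With 3 libraries against 3, the smallest two-sided p that an exact permutation test of a single gene can give is 0.1.

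SNAI1 (chr20:49982999-49988886), the Snail repressor, was the only 1 of the 5 tested members called with RNF26 in HCT15. It was called lower, as were 31.2% of all tested genes. It stood at 0.75, 0.36 and 0.71 TPM in HCT15 RNF26 cells, against 0.88, 1.19 and 1.06 TPM in HCT15 controls. All RNF26 libraries lay below all controls, as they did in HCT15 for ACTA2 and for 35.9% of tested genes. The log2 fold change was -0.35 (SE 0.12, limma adjusted p = 0.0413, n = 3 each). The call is narrow: the adjusted p passed in 7 of 22 alternative settings and ranged between 0.0275 and 0.144 over them, and without HCT15 control replicate 3 it was 0.0867. In HCT116, SNAI1 stood at 4.65, 4.46 and 3.99 TPM in RNF26 cells, against 4.75, 4.23 and 4.12 TPM in controls, with a mean of 4.37 TPM in either group. The difference between the effects in the 2 lines, HCT15 minus HCT116, was -0.35 (95% interval -0.73 to 0.03, limma adjusted p = 0.176), so that an effect particular to HCT15 was not shown.

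ZEB1 (chr10:31318495-31529814), the E-box repressor with the miR-200 sites shown above, did not pass in either line with RNF26. It stood at 0.25, 0.32 and 0.22 TPM in HCT15 RNF26 cells, against 0.24, 0.21 and 0.34 TPM in HCT15 controls. In HCT116 it stood at 1.2, 1.14 and 0.96 TPM in RNF26 cells, against 1.07, 1.07 and 1.15 TPM in controls. The groups overlapped in both lines, and the 95% intervals of the log2 fold change ran between -0.23 and 0.23 in each. ZEB1-AS1, transcribed head to head with ZEB1 on the other strand (chr10:31206278-31320447), had 7.77, 8.77 and 8.26 TPM in HCT15 RNF26 cells, against 10.49, 9.26 and 11.38 TPM in HCT15 controls. In HCT116 it had 1.67, 2.01 and 2.72 TPM in RNF26 cells, against 2.75, 1.58 and 3.56 TPM in controls. It was thus more abundant than ZEB1 in every library of both lines. Its RNF26 difference in HCT15 did not pass (log2 fold change -0.29, limma adjusted p = 0.260). Both genes share the stretch between 31318495 and 31320447, and whether strand was used in the quantification is not stated in the sources used here, so reads of that stretch cannot be assigned with certainty.

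ZEB2 (chr2:144364364-144524583), the paralog with the same number of miR-200 sites, was barely above 0 everywhere. It stood at 0.1, 0.07 and 0.16 TPM in HCT15 RNF26 cells, against 0, 0 and 0.01 TPM in HCT15 controls. In HCT116 it stood at 0, 0 and 0.02 TPM in RNF26 cells, against 0.05, 0.01 and 0.01 TPM in controls. In HCT15 the RNF26 libraries all lay above the controls, and without the filter this difference was called (log2(TPM + 1) difference 0.14, SE 0.030, limma adjusted p = 0.00943), where 13.4% of the 35454 genes were called. The RNF26 effect in HCT15 minus that in HCT116 was also called in that fit (0.17, limma adjusted p = 0.0460). These levels are at most 0.16 TPM, the table has 2 decimals and its depth is unknown, so no fold is given.

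SNAI2 (chr8:48917604-48921740), the Slug repressor, was listed at 0 in all HCT15 libraries of both groups. In HCT116 it stood at 0.38, 0.34 and 0.14 TPM in RNF26 cells, against 0.43, 0.19 and 0.28 TPM in controls, and the groups overlapped. TWIST1 (chr7:19020991-19117672) was likewise listed at 0 in all 6 HCT15 libraries. It stood at 0.61, 1.02 and 0.98 TPM in HCT116 RNF26 cells, against 0.52, 0.27 and 0.85 TPM in HCT116 controls. The TWIST1 groups overlapped and the HCT116 difference did not pass without the filter (0.28 on the log2(TPM + 1) scale, limma adjusted p = 0.979).

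CDH2 (chr18:27950966-28177446) encodes N-cadherin, which replaces E-cadherin in the classical cadherin switch. It was listed at 0.02, 0 and 0 TPM in HCT15 RNF26 cells, against 0 in all 3 HCT15 controls. In HCT116 it was listed at 0, 0.01 and 0 TPM in RNF26 cells, against 0.04, 0 and 0.14 TPM in controls. No contrast called it in the fit without the filter.

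FN1 (chr2:215360440-215436172), fibronectin, a matrix glycoprotein that mesenchymal cells secrete, overlapped between RNF26 cells and controls in both lines. It stood at 1.47, 0.71 and 1.09 TPM in HCT15 RNF26 cells, against 1.16, 0.97 and 0.58 TPM in HCT15 controls. In HCT116 it stood at 4.45, 4.54 and 3.99 TPM in RNF26 cells, against 4.29, 4.05 and 5.4 TPM in controls. The log2 fold change was 0.13 in HCT15 (95% interval -0.22 to 0.49, limma adjusted p = 0.577) and -0.06 in HCT116 (95% interval -0.42 to 0.29).

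The 2 contractile markers had their lowest group means in HCT116 RNF26 cells, but neither was called with RNF26 there. ACTA2 was already lower in HCT116 controls than in HCT15 controls (means of 2.15 and 6.73 TPM). TAGLN (chr11:117199321-117204782), transgelin, an actin-binding protein of smooth muscle and activated fibroblasts, stood at 1.06, 1.1 and 1.56 TPM in HCT116 RNF26 cells, against 2.49, 2.68 and 2.35 TPM in HCT116 controls. The RNF26 libraries all lay below the controls, at 0.495 times their mean. The log2 fold change was -0.65 (SE 0.18, limma adjusted p = 1.0). ACTA2 (chr10:88935074-88991339), smooth muscle alpha-actin, stood at 1.51, 1.05 and 1.38 TPM in HCT116 RNF26 cells, against 1.9, 2.19 and 2.37 TPM in HCT116 controls. Here too the RNF26 libraries all lay below the controls, at 0.610 times their mean (log2 fold change -0.45, SE 0.10, limma adjusted p = 0.699). In HCT116, 1 of the 15584 tested genes was called, RNF26 itself, which is 0.00642%, and 657 had an unadjusted p under 0.05. All RNF26 libraries lay below all controls for 5.56% of tested genes there. Since members are described with their values known, the 2 of 5 that did so are a description.

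In HCT15 neither of the pair passed. TAGLN stood at 2.39, 2.96 and 1.78 TPM in HCT15 RNF26 cells, against 3.02, 1.57 and 1.77 TPM in HCT15 controls, and the groups overlapped (log2 fold change 0.13, limma adjusted p = 0.636). ACTA2 stood at 5.69, 5.77 and 6.17 TPM in HCT15 RNF26 cells, against 6.46, 6.95 and 6.77 TPM in HCT15 controls. These ACTA2 groups did not overlap, but the change of -0.17 did not pass (limma adjusted p = 0.226), and its sign turned to 0.02 with median-ratio scaling and 0.07 with quantile normalization. The TAGLN effect in HCT15 minus that in HCT116 was 0.78 (SE 0.26, limma adjusted p = 0.0534). That value lay just outside the threshold and passed in 7 of 21 alternative settings, with adjusted p between 0.0189 and 0.141. The same difference for ACTA2 was 0.28 (limma adjusted p = 0.194). For 20.5% of tested genes this difference between the RNF26 effects in the 2 lines was called.

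**Figure D2:**
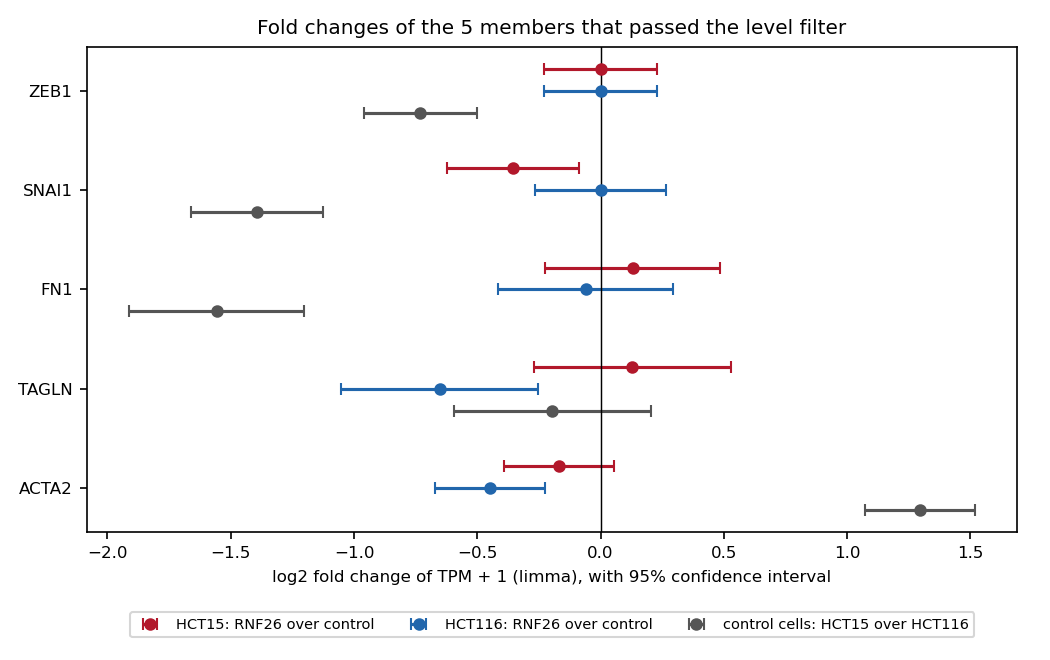
Log2 fold change of TPM + 1 (horizontal axis) of the 5 members that passed the level filter, with 95% limma intervals as bars; colours mark RNF26 over control in HCT15 and in HCT116 and HCT15 over HCT116 among controls. The RNF26 intervals of ZEB1 and FN1 span 0 in both lines, those of TAGLN and ACTA2 lie below 0 in HCT116 before adjustment, and the line differences of FN1 and ACTA2 lie clear of 0. Those of ZEB1 and SNAI1 are drawn too, but both genes entered through HCT116 alone.

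ACTA2 and TAGLN are textbook targets of serum response factor, SRF, and its MRTF coactivators, which bind CArG boxes, so the 250 bases before the start of the short ACTA2 transcript are shown. They lie at chr10:88952774-88953023 on the minus strand (RefSeq, GRCh38.p14), within an intron of the longer ACTA2 transcripts, and are written 5′ to 3′. Capitals mark 2 matches to a CArG box with any letter allowed at 1 of its central positions, searched on both strands.
ACTA2: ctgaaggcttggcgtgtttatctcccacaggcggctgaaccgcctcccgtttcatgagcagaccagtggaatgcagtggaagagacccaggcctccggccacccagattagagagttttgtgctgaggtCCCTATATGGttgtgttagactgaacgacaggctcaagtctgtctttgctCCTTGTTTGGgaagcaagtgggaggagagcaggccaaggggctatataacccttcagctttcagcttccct
Of 35116 windows of the same length, 7.04% held such a match and 1.16% an exact CArG box. The match is a description of letters. ACTA2 shares its far upstream start with FAS, a death receptor gene on the other strand (chr10:88990582-89015785), at 24.11 to 29.58 TPM in HCT15 RNF26 cells and 28.1 to 31.09 TPM in HCT15 controls. In HCT116, FAS stood at 11.46 to 14.14 TPM in RNF26 cells and 12.11 to 14.45 TPM in controls. FAS was 2.24-fold higher in HCT15 than in HCT116 controls (limma adjusted p = 1.64e-06), in the same direction as ACTA2, and the part of the overlap in the ACTA2 values was not tested.

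ACTA2 is also nearly identical in coding sequence to the other actins, and reads can be shared with ACTB (beta-actin), which is far more abundant. ACTA2 amounted to 0.911% to 1.03% of ACTB in HCT15 RNF26 cells, against 0.534% to 0.655% in HCT15 controls. In HCT116 it amounted to 0.114% to 0.174% in RNF26 cells, against 0.209% to 0.312% in controls. The ratio thus lay above the controls with RNF26 in HCT15 and below them in HCT116. In HCT15 ACTB itself stood at 579.85 to 624.28 TPM in RNF26 cells and 1034 to 1209 TPM in controls, so the ratio there reports unequal change of the pair.

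**Figure D3:**
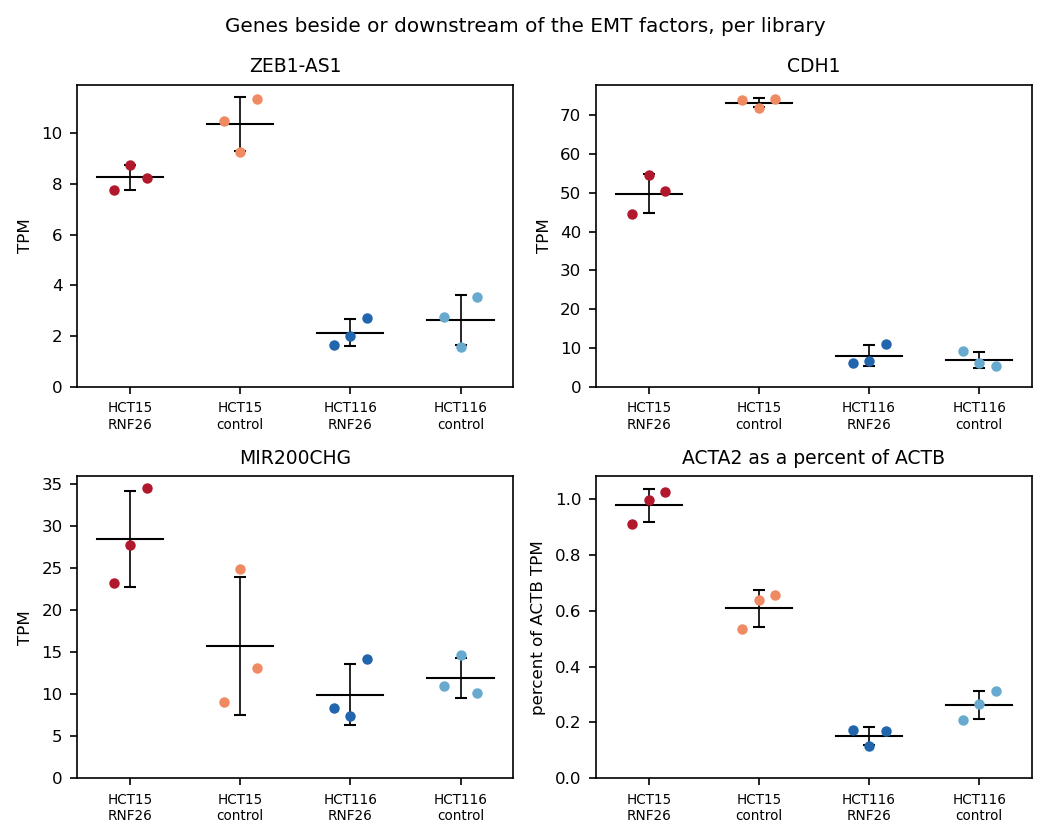
TPM per library of ZEB1-AS1, CDH1 and MIR200CHG, and ACTA2 as a percent of ACTB, in the 4 groups (vertical axes, linear from 0); points are libraries, horizontal lines the group mean and bars the SD. CDH1 and ZEB1-AS1 are higher in every HCT15 library than in any HCT116 library, and the ACTA2 share of ACTB is higher with RNF26 in HCT15 and lower with RNF26 in HCT116.

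Between the lines, 2 of the 3 members that reached the filter in each line alone were called among controls, where 69.5% of all tested genes were called, so the share of members is near the background. FN1 was lower in HCT15 controls, at 0.903 ± 0.30 TPM, against 4.58 ± 0.72 TPM in HCT116 controls (SD, n = 3 each; log2 fold change -1.56, limma adjusted p = 5.04e-06). ACTA2 ran the other way, at 6.73 ± 0.25 TPM in HCT15 controls, against 2.15 ± 0.24 TPM in HCT116 controls (1.30, limma adjusted p = 4.83e-07). TAGLN overlapped between the control lines (-0.20, limma adjusted p = 0.354). The levels of the other pair also stood apart: SNAI1 averaged 1.04 ± 0.16 TPM in HCT15 controls and 4.37 ± 0.34 TPM in HCT116 controls, and ZEB1 averaged 0.263 ± 0.068 TPM in HCT15 controls and 1.10 ± 0.046 TPM in HCT116 controls, with no overlap of libraries in either gene. In bulk RNA, fewer cells with a transcript and less of it per cell cannot be told apart.

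Among RNF26 cells FN1, TAGLN and ACTA2 were called between the lines, where 67.9% of tested genes were called. ACTA2 was 4.47-fold higher in HCT15 RNF26 cells than in HCT116 RNF26 cells as a ratio of means (log2 fold change 1.58, limma adjusted p = 9.35e-08). FN1 was lower, with a mean of 1.09 TPM in HCT15 RNF26 cells and 4.33 TPM in HCT116 RNF26 cells (-1.36, limma adjusted p = 1.55e-05). SNAI1 averaged 0.607 TPM in HCT15 RNF26 cells and 4.37 TPM in HCT116 RNF26 cells, and ZEB1 averaged 0.263 TPM in HCT15 RNF26 cells and 1.10 TPM in HCT116 RNF26 cells. TAGLN was 1.92-fold higher in HCT15 RNF26 cells (0.58, limma adjusted p = 0.0138), a call that ended without HCT15 RNF26 replicate 2 (adjusted p = 0.0596). Without the filter on low values 34.7% of genes were called among controls, SNAI2 and TWIST1 among them. Both were listed at 0 in all HCT15 libraries, so they could enter that fit only through HCT116. A line difference was thus built into their entry, and it is given as levels with no test. In HCT116 controls SNAI2 averaged 0.300 TPM and TWIST1 0.547 TPM. No fold is given against values listed at 0.

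Whether genes around these markers moved was read from 6 further lists of the same pathway. In HCT116 RNF26 cells 0 genes of the 6 lists were called, in limma with adjustment over all tested genes. The HCT15 comparison needs its background beside it: 36.6% of tested genes were called, 5.39% higher and 31.2% lower, and the median of all tested genes was -0.17. That median became 0 with median-ratio scaling, under which 2242 genes were higher and 2600 lower, so list medians are given relative to all tested genes. The higher ribosomal protein share of the HCT15 RNF26 libraries, 26.3% to 27.5% against 17.6% to 24.3% in controls, moved with this comparison. Without mitochondrial and ribosomal protein genes 1412 genes were higher and 3482 lower, the median of all genes was -0.08 and SNAI1 did not pass (limma adjusted p = 0.0712). All RNF26 libraries lay below all controls in HCT15 for 35.9% of tested genes, and for 2 of the 5 tested members, SNAI1 and ACTA2. Of the tested members 1 was lower and 0 were higher in HCT15. In the counts between the control lines, genes that reached the filter through 1 line alone had a direction built in. In the epithelial and TGF-beta lists these were CLDN1, OVOL2, SMAD6 and TGFB3, higher in HCT15.

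Other transcription factors of the transition: 10 of 17 were tested, 5 were lower and 0 higher with RNF26 in HCT15, and their median was -0.09 relative to all genes. FOSL1 (FRA1, an AP-1 subunit) fell to 9.16 TPM in HCT15 RNF26 cells, against 16.5 TPM in controls (log2 fold change -0.78, limma adjusted p = 6.50e-05). TCF3, which encodes the E-proteins that pair with TWIST1, fell to 26.4 TPM, against 58.6 TPM in controls (-1.13, limma adjusted p = 8.60e-05). SOX9, a factor of intestinal crypt cells, fell to 19.1 TPM, against 41.5 TPM in controls (-1.07, limma adjusted p = 1.42e-04). These 3 were far more abundant than SNAI1 or ZEB1. Between the control lines 4 were higher and 3 lower in HCT15, SOX9 with 41.5 TPM in HCT15 and 8.60 TPM in HCT116 (2.13) and FOSL1 with 16.5 TPM in HCT15 and 42.6 TPM in HCT116 (-1.32).

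Corepressors and stability factors are the partners through which SNAI and ZEB proteins silence genes and the enzymes that degrade or stabilize these proteins. The list mixes these opposite actions, so its counts have no single reading. All 22 were tested, 14 were lower and 0 higher with RNF26 in HCT15, with a median of -0.15 relative to all genes. The count of lower genes was 6 with median-ratio scaling, 5 with quantile normalization and 8 without mitochondrial and ribosomal protein genes. CTBP2, a corepressor that ZEB proteins recruit, averaged 61.9 TPM in RNF26 cells and 89.9 TPM in controls (-0.53, limma adjusted p = 2.08e-04). KDM1A, the histone demethylase that SNAI1 binds, averaged 47.2 TPM in RNF26 cells and 68.3 TPM in controls (-0.53, limma adjusted p = 3.56e-04). CTBP1 averaged 47.4 TPM in RNF26 cells and 78.4 TPM in controls (-0.71, limma adjusted p = 7.70e-04). Between the control lines 12 were higher and 5 lower in HCT15, near the 43.6% higher and 26% lower of all tested genes. Among the higher were the ubiquitin ligase SIAH1 (1.28) and the kinase CSNK1A1 (0.66).

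Epithelial genes that ZEB and SNAI proteins are known to repress: all 28 were tested, 14 were lower and 1 higher with RNF26 in HCT15, with a median of -0.20 relative to all genes. The counts were 9 lower and 4 higher with median-ratio scaling and 11 lower and 3 higher with quantile normalization. ST14 (matriptase, a membrane protease) averaged 27.0 TPM in RNF26 cells and 64.3 TPM in controls (-1.22, limma adjusted p = 3.19e-05). PRSS8 (prostasin), which matriptase works with, averaged 39.3 TPM in RNF26 cells and 69.8 TPM in controls (-0.81, limma adjusted p = 1.30e-04). PKP3 (plakophilin, a desmosome protein) averaged 13.9 TPM in RNF26 cells and 25.2 TPM in controls (-0.82, limma adjusted p = 2.46e-04). CDH1, E-cadherin, stood at 44.46, 54.49 and 50.43 TPM in HCT15 RNF26 cells, against 73.78, 71.89 and 74.03 TPM in HCT15 controls. The CDH1 groups did not overlap, but the change missed the threshold (-0.55, SE 0.20, limma adjusted p = 0.0534). In HCT116, CDH1 stood at 6.25, 6.6 and 11.15 TPM in RNF26 cells, against 9.33, 6.22 and 5.37 TPM in controls, and the groups overlapped.

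Between the control lines 22 of the 28 epithelial genes were higher in HCT15 and 2 lower, against 43.6% higher and 26% lower over all tested genes, and their median was 0.84 relative to all genes. CDH1 was 10.5-fold higher in HCT15 controls (3.25, limma adjusted p = 7.29e-08). CLDN3, a tight junction claudin, averaged 56.9 TPM in HCT15 controls and 4.77 TPM in HCT116 controls (3.33). PRSS8 averaged 69.8 TPM in HCT15 controls and 8.46 TPM in HCT116 controls (2.91). The 2 lower in HCT15 were ESRP1 and OVOL1. HCT116 controls had less of most of these epithelial mRNAs and more ZEB1, SNAI1, SNAI2, TWIST1 and FN1 mRNA, as a description of 2 lines. The other members did not share that direction: ACTA2 was higher in HCT15 controls, TAGLN overlapped, and ZEB2 and CDH2 were near 0 in both. Whether the members and the epithelial genes are linked was not tested.

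Other mesenchymal and matrix genes: 16 of 31 were tested, 1 was higher and 3 lower with RNF26 in HCT15, with a median of 0.06 relative to all genes. MMP14, a membrane-bound matrix protease, averaged 5.74 TPM in RNF26 cells and 15.3 TPM in controls (-1.24, limma adjusted p = 7.81e-04). S100A4, a calcium-binding protein also made by fibroblasts, averaged 15.5 TPM in RNF26 cells and 11.5 TPM in controls (0.42, limma adjusted p = 0.0420), a call that ended in 12 of 23 alternative settings, among them without HCT15 control replicate 3 (0.22, adjusted p = 0.0877). Between the control lines 10 were lower and 4 higher in HCT15. Of the 10, 5 (COL6A2, FBLN1, AXL, LOXL2 and VIM) had reached the filter through HCT116 alone, so their lower values in HCT15 were built into that count. Of the 8 genes that reached it in each line alone, 5 were lower and 3 higher. COL6A2, a collagen, averaged 0.0167 TPM in HCT15 controls and 12.7 TPM in HCT116 controls, and CD44, a hyaluronan receptor, averaged 23.5 TPM in HCT15 controls and 189 TPM in HCT116 controls (-2.96). VIM (vimentin, the intermediate filament of mesenchymal cells) averaged 0.747 TPM in HCT15 controls and 3.18 TPM in HCT116 controls, so it was low in both lines.

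Actin cytoskeleton genes that SRF and MRTF control, the family of ACTA2 and TAGLN: 24 of 28 were tested, 17 were lower and 0 higher with RNF26 in HCT15, with a median of -0.47 relative to all genes. Among the 17 were the regulators SRF and MRTFA themselves, so the count is not of their targets alone. The lower count was 14 with median-ratio scaling and 16 with quantile normalization. CNN3 (calponin) averaged 90.2 TPM in RNF26 cells and 146 TPM in controls (-0.68, limma adjusted p = 3.20e-05). ZYX (zyxin, a focal adhesion protein) averaged 7.01 TPM in RNF26 cells and 15.3 TPM in controls (-1.03, limma adjusted p = 3.91e-05). CCN2, a secreted matrix protein also induced by YAP and TGF-beta, averaged 1.75 TPM in RNF26 cells and 5.10 TPM in controls (-1.15, limma adjusted p = 4.63e-05). In HCT15 these 17 genes fell while neither TAGLN nor ACTA2 passed. In HCT116 neither passed, and 0 of the 24 were called. Between the control lines 17 were higher and 3 lower in HCT15. The lower genes included caldesmon CALD1, with 0.543 TPM in HCT15 and 32.7 TPM in HCT116, and myosin light chain MYL9, with 0.213 TPM in HCT15 and 11.5 TPM in HCT116. Both had reached the filter through HCT116 alone, and CCN2, among the higher, through HCT15 alone.

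TGF-beta ligands, receptors and SMADs, the signal best known to start the transition: 16 of 17 were tested, 9 were lower and 1 higher with RNF26 in HCT15, with a median of -0.16 relative to all genes. The lower count was 6 with median-ratio scaling and 4 with quantile normalization. SKI, a corepressor of SMADs, averaged 2.94 TPM in RNF26 cells and 5.49 TPM in controls (-0.72, limma adjusted p = 4.79e-04). TGFBR3, the coreceptor betaglycan, averaged 2.78 TPM in RNF26 cells and 5.19 TPM in controls (-0.71, limma adjusted p = 0.00143). TGFBR1, the signalling receptor, was the 1 that rose, to 6.31 TPM in RNF26 cells, against 4.01 TPM in controls (0.54, limma adjusted p = 0.00174). Between the control lines 13 were higher and 1 lower in HCT15, a count of 7 higher with quantile normalization, with the inhibitory SMAD7 at 12.5 TPM in HCT15 and 1.52 TPM in HCT116 (2.44) and TGFBR3 at 5.19 TPM in HCT15 and 1.42 TPM in HCT116 (1.35).

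**Figure D4:**
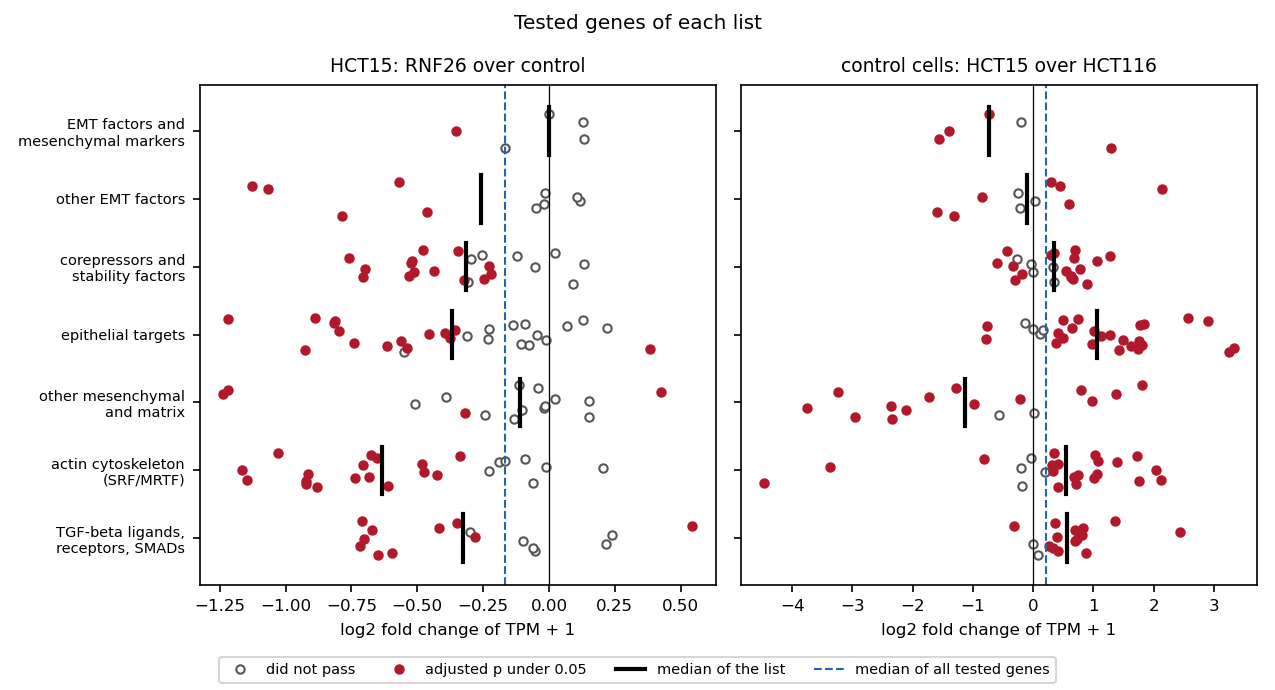
Log2 fold change of TPM + 1 (horizontal axes) of each tested gene of the 9 markers and the 6 further lists, with RNF26 over control in HCT15 on the left and HCT15 over HCT116 among controls on the right; filled points were called, bars are list medians and the dashed line is the median of all tested genes. The actin list lies furthest below the dashed line on the left (-0.47 relative to it), and the epithelial list lies above it on the right (0.84). The mesenchymal bar on the right rests on 16 of 31 genes, 6 of which reached the filter through HCT116 alone.

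Without HCT15 control replicate 3, the library with the high mitochondrial share, the lower counts with RNF26 in HCT15 were 5 for the other transcription factors, 11 for the corepressors, 12 for the epithelial genes, 2 for the mesenchymal genes, 17 for the actin genes and 7 for the TGF-beta genes. Smooth muscle markers summed to 5.05 to 6.0 TPM in HCT15 RNF26 cells and 7.5 to 9.49 TPM in HCT15 controls. In HCT116 they summed to 21.6 to 27.0 TPM in RNF26 cells and 22.9 to 25.3 TPM in controls. Most of that sum was SMTN, so these sums do not follow TAGLN and ACTA2 in HCT116. Immune markers summed to 11.2 to 13.0 TPM in HCT15 RNF26 cells and 13.6 to 21.96 TPM in HCT15 controls, and to 6.35 to 7.77 TPM in HCT116 RNF26 cells and 8.22 to 10.2 TPM in HCT116 controls; at least 4 of the 6 were under 1 TPM in each group.

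MIR200CHG (chr12:6963246-6964447), the host RNA of miR-200c and miR-141, stands in for those microRNAs as far as a poly(A) library can. It had 23.16, 27.71 and 34.49 TPM in HCT15 RNF26 cells, against 9.12, 24.84 and 13.08 TPM in HCT15 controls, with overlap of the groups. In HCT116 it had 8.33, 7.41 and 14.11 TPM in RNF26 cells, against 10.92, 14.6 and 10.16 TPM in controls. The HCT15 change was called (0.91, SE 0.32, limma adjusted p = 0.0430). However, 11 of 23 alternative settings ended the call, among them without HCT15 control replicate 1 (0.61, limma adjusted p = 0.163). Its RNF26 effect in HCT15 minus that in HCT116 was not called (1.18, limma adjusted p = 0.0872).

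The genes whose levels followed each member most closely over the 12 libraries were found by the root mean square difference in centred log2(TPM + 1), with up to 2 named for each tested member. For ZEB1 they were PINX1 (0.0415) and ATAD2 (0.0553). For SNAI1 the closest was WDR46 (0.0896), and for FN1 they were NDUFC2 (0.133) and SELENOM (0.140). For ACTA2 they were CBR3 (0.123) and FAXC (0.131). TAGLN had no close follower: its nearest, EIF4E3 (0.185) and AMN1 (0.231), lay at distances of the order of its own SD of 0.332. For the other 4 members, whose SDs were 0.387 for ZEB1, 0.838 for SNAI1, 0.784 for FN1 and 0.775 for ACTA2, these matches mostly share the step between the lines.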

How the data were processed

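The authors deposited 1 table of TPM with 2 decimals and 1 column per library. The tools were RSEM, StringTie, HISAT2 and fastp, with GRCh38, per the submitters' processing notes, and the annotation release and strand setting are not stated in the sources used here. Per the labels' protocols, libraries came from oligo(dT)-selected RNA with a stranded kit and paired-end sequencing. Groups came from the sample titles. Symbols and positions were matched by Ensembl number to a GENCODE annotation of GRCh38 (42300 identifiers), and sequences to RefSeq tables of GRCh38.p14. SNAI1, SNAI2, TWIST1 and TAGLN had no entry among the promoters used.

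In R 4.3.3, limma 3.58.1 was fitted once to log2(TPM + 1) of 15584 genes in all 12 libraries, with a mean per group, eBayes with a trend, 8 degrees of freedom from the residuals and 3.09 from the prior. Two-sided tests were used with Benjamini-Hochberg adjustment over all tested genes, and the fit was tested on simulated data. The contrasts were RNF26 over control in each line, their difference, and HCT15 over HCT116 in each arm. The members and lists were chosen with earlier results of these data known. Of each list the text names up to 3 genes with the smallest p in HCT15 and up to 2 between the control lines. CDH1, VIM, ACTB, SRF, MRTFA and the genes beside the members were named outside that rule, for their roles or positions. ESRP1 and OVOL1 were named as the epithelial genes that were lower in HCT15 controls. A gene that the rule names and a gene found by its likeness to a member are not reported here. Alternatives were pseudocounts of 0.1 and 5, no filter or one of 5 TPM, median-ratio scaling over 7524 genes, quantile normalization, removal of 124 mitochondrial and ribosomal protein genes, separate fits, other eBayes settings, a replicate block and each library left out.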

Additional observations from a re-analysis of the deposited data

Results flagged for a closer look

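Each gene here had an RNF26 effect that differed between the lines in the limma test of the difference itself, given as the log2 effect in HCT15 minus that in HCT116, as did 20.5% of all tested genes. None of the 5 tested members did. In the fit without the filter ZEB2, at no more than 0.16 TPM in a library, did (0.17, adjusted p = 0.0460). RNF26 itself differed by -3.07 (adjusted p = 1.14e-06), the rise in HCT15 being the smaller. The genes below had been named for a small p with RNF26 in HCT15 or between the control lines. Both contrasts share libraries with the difference, so passing was favoured by that choice. Their differences are therefore a description, and their number cannot be set against the share of all tested genes.

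Among the other transcription factors FOSL1 differed by -0.91, TCF3 by -1.12 and SOX9 by -1.05. Among the corepressors and stability factors CTBP2 differed by -0.47, KDM1A by -0.47, CTBP1 by -0.68 and CSNK1A1 by -0.47. Among the epithelial genes ST14 differed by -1.22, PRSS8 by -0.63, PKP3 by -0.69 and CLDN3 by -0.65. Among the mesenchymal genes MMP14 differed by -1.03. Among the actin genes CNN3 differed by -0.66, ZYX by -0.91 and CCN2 by -1.08. Among the TGF-beta genes SKI differed by -0.77 and TGFBR3 by -0.79, while TGFBR1 differed by 0.57 the other way.

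The negative values are set against a median of -0.18 over all tested genes. With median-ratio scaling CTBP2, KDM1A, CTBP1, CSNK1A1, CLDN3 and MMP14 no longer passed. With quantile normalization CTBP1, CSNK1A1, PKP3, CLDN3, MMP14 and TGFBR3 no longer passed. MMP14 also missed the threshold without the filter and without each of 6 single libraries, with adjusted p between 0.0527 and 0.0667 in those 6.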

How the results depend on the processing

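In HCT116 RNF26 cells 0 members were called under every setting run. In HCT15 RNF26 cells 1 member was called, SNAI1. With no filter SNAI1 lost its call (adjusted p = 0.1004) and ZEB2 was called in its place. The count became 0 with a pseudocount of 5, a filter of 5 TPM, median-ratio scaling, quantile normalization, removal of mitochondrial and ribosomal protein genes, a separate fit and the replicate block, and ranged from 0 to 1 with 1 library left out (0 without HCT116 control 1, 2 or 3, HCT116 RNF26 1 or 2, HCT15 control 2 or 3, or HCT15 RNF26 2). For the difference of the RNF26 effects 0 members became 1 with a pseudocount of 0.1 (TAGLN), no filter (ZEB2), median-ratio scaling (TAGLN) and removal of mitochondrial and ribosomal protein genes (TAGLN), and 2 with quantile normalization (ACTA2 and TAGLN), with 0 to 1 when 1 library was left out (TAGLN, without HCT15 RNF26 3, HCT15 control 1 or HCT116 RNF26 3). Between control lines the count of 4, ZEB1 and SNAI1 included, became 1 with the filter of 5 TPM, which left 1 member tested. Between RNF26 cells the count of 5, both included, became 8 with no filter and 1 with the filter of 5 TPM. ZEB1 and SNAI1 reached the filter through HCT116 alone. SNAI2 and TWIST1, listed at 0 in all HCT15 libraries, could enter the fit without the filter only through HCT116. A line difference was thus built into these counts, which are a description. Of the members that reached the filter in each line alone, FN1 and ACTA2 were called among controls, and TAGLN as well among RNF26 cells.

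The signs that turned were of values near 0. The HCT15 change of ACTA2 was 0.022 with median-ratio scaling and 0.072 with quantile normalization. The HCT116 change of ZEB1 was -0.00068 with a pseudocount of 0.1, -0.0051 with median-ratio scaling, -0.016 with quantile normalization, and -0.034 to 0.050 with 1 library left out. Its HCT15 change was -0.016 with quantile normalization and -0.031 to 0.044 with 1 library left out. Its difference was 0.0075 with a pseudocount of 0.1, 0.049 with median-ratio scaling, 0.035 without mitochondrial and ribosomal protein genes, and -0.049 to 0.043 with 1 library left out. The HCT116 change of SNAI1 was 0.0018 without mitochondrial and ribosomal protein genes and -0.038 to 0.051 with 1 library left out, and that of FN1 was -0.13 to 0.042. The causes were not tested.

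Deviations of same-numbered libraries correlated by -0.042 to -0.025 between the arms of HCT116 and 0.009 to 0.146 between those of HCT15. Those of differently numbered libraries correlated by -0.026 to 0.055 in HCT116 and -0.124 to 0.113 in HCT15. The labels state no pairing, and so few correlations cannot decide whether there was one. With the replicate block the adjusted p of SNAI1 in HCT15 was 0.0628. Without any single HCT116 library S100A4 in HCT15 lost its call (adjusted p 0.0547 to 0.0572), as it did without HCT15 RNF26 1 (0.112) or 2 (0.125). The call of MIR200CHG ended without each HCT15 library but control 2, and without HCT116 RNF26 1 or HCT116 control 1 or 3 (0.0544 to 0.163). CDH1 in HCT15 passed in 6 of 23 settings: a separate fit (0.0094), a pseudocount of 5 (0.0163), the filter of 5 TPM (0.0395), and without HCT116 RNF26 3 (0.0176), HCT116 control 1 (0.0309) or HCT116 control 3 (0.0485). The 14 lower corepressors became 9 without HCT15 control 1. Depth is unknown, and levels under 1 TPM limit what can be said of ZEB2, SNAI2, TWIST1 and CDH2.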
